A study of Mus musculus with 2 samples.

Results

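Esrrb, Lmx1a, Hmx2, Hmx3, Meis2, Eya4, Pou3f4, Sox8, Gata3 and Otx2, 10 transcription regulators of 48816 annotated features, were followed across the cell types of the adult mouse stria vascularis (SV). They were taken by gene symbol from the list of features, and all 10 were found. Single-nucleus RNA-Seq (snRNA-Seq) of the SV of CBA/J mice at postnatal day 30 (P30) gave 1 library for each of the 2 ways of preserving the sample. In MethFix, isolated nuclei were fixed with methanol. In RNAlater, microdissected tissue was soaked in RNAlater before the nuclei were isolated. No transgene, drug or disease model was named for either group, and each library pooled the tissue of several mice. The methods give 5 mice for MethFix and 6 for RNAlater, whereas the sample labels give about 5 to 6 and about 10. Nuclei hold unspliced and newly made RNA, so the values describe nuclear RNA and not protein.

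The SV lines the lateral wall of the cochlear duct and keeps up the high potassium and positive voltage of endolymph. Marginal cells, an epithelium, face the endolymph and secrete potassium through Kcnq1 and Kcne1. Intermediate cells resemble melanocytes, and basal cells, joined by Cldn11 tight junctions, close the layer towards the spiral ligament. Spindle cells lie at the edges of the SV, and root cells send processes into the ligament below it. Transcription factors bind DNA and set which genes a cell type uses, and several of the 10 are needed for the ear to form. Esrrb, an orphan nuclear receptor, is needed in marginal cells and is mutated in an inherited deafness. Eya4 does not bind DNA itself but acts as a coactivator, and it too is mutated in human deafness, as are Pou3f4 and Gata3.

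The sequences shown are the stretches just before the start sites of Esrrb, Hmx2 and Hmx3, which shared the same leading cell type, and of Otx2, which did not. They were read from RefSeq's promoter table (build GRCm38.p6), in which all 10 genes were matched, and run 5′ to 3′ on the strand of the gene. Esrrb is chr12:86360867-86361116 on the plus strand, Hmx2 is chr7:131548507-131548756 plus, Hmx3 is chr7:131542713-131542866 plus and Otx2 is chr14:48667645-48667894 minus. The Hmx3 stretch ends at 154 bases, where the GENCODE first exon begins, and the others hold 250 bases. Capitals mark matches to GATAA, a core of GATA factor motifs, and TAATTA, a homeodomain motif.
Esrrb: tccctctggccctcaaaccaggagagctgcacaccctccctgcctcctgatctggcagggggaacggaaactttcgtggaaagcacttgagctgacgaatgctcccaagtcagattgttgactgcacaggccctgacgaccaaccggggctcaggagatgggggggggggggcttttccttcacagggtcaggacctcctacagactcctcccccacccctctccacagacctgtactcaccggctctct
Hmx2: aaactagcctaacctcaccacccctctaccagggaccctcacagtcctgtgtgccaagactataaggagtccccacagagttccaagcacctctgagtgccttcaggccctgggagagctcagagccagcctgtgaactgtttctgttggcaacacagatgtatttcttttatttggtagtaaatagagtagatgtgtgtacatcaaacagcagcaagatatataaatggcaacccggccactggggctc
Hmx3: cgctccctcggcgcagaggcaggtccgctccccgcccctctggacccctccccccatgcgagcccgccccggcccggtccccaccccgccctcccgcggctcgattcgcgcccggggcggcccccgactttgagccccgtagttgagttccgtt
Otx2: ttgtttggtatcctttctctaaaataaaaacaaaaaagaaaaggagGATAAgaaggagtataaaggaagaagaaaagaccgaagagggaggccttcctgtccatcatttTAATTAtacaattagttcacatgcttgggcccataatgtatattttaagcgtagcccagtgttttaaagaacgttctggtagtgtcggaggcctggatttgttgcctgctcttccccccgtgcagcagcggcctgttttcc
Of the windows of 250 bases before 1 RefSeq start of each of the 10 genes, searched on both strands, 1 held TAATTA and 1 held GATAA, and both were the Otx2 window. Over the 32851 promoters of the table, 4.84% held TAATTA and 22.6% held GATAA. The extended half-site read by Esrrb-type receptors, AAGGTCA, was in 4.08% of promoters and in 0 of the 10 windows. These are matches of letters and say nothing of binding. The windows also differed in base composition, with 60.8% G and C for Esrrb, 49.6% for Hmx2, 76.8% for the full window of Hmx3 and 42.0% for Otx2, against a median of 52.4% over the table. The Otx2 window belongs to 1 of 4 RefSeq starts and lies 6175 bases inside the GENCODE gene. The RefSeq starts used for Gata3, Meis2, Eya4, Lmx1a and Pou3f4 also lie inside their GENCODE genes, by 11434, 1220, 843, 321 and 99 bases.

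After filters on nuclei, 3372 MethFix and 2311 RNAlater barcodes were kept, with 12066198 and 10546726 unique molecular identifiers (UMIs) and a median of 3498.5 and 4702 UMIs per nucleus. Of these, 2256 barcodes were kept in both matrices, and in them 88.8% of the MethFix UMIs were also counted in RNAlater at the same barcode and gene. For single members this share ran from 80.1% for Otx2 to 98.4% for Esrrb. The 2 matrices were therefore treated as 1 sample, not as replicates: both values are given throughout, no p-value is printed, and intervals are 95% intervals that cover counting error alone. Each nucleus was put in a class by the UMIs of marker genes, and levels are given as CPM, the UMIs of a gene per 1000000 UMIs of the class. The marginal class (Kcnq1, Kcne1, Stac) held 1086 MethFix and 712 RNAlater nuclei, the intermediate class (Tyr, Dct) 1144 and 697, the basal class (Cldn11) 232 and 228, the root class (Ceacam16, Epyc) 48 and 48, and the spindle class (Anxa1) 42 and 24. Of nuclei classed in both matrices, 98.9% had the same class, which is no independent check because most of their UMIs are shared. Markers that the class rule did not use were highest in their own class for 4 of 4 marginal, 5 of 6 intermediate and 5 of 5 basal genes in both matrices. The counts were 5 and 4 of 5 for root and 4 and 4 of 5 for spindle, where Dkk2 was higher in nuclei with Vmo1 and Slc26a7. The study drew Dpp10, Lgr5 and Rspo2 of these lists from the same data, so this too is not an independent check. The nuclei with Vmo1 and Slc26a7 (98 and 104) are called by their markers, since 0 of the 2 other Reissner's membrane genes checked was highest in them. Those genes had 6 and 5 UMIs (Crb2) and 1 and 2 UMIs (Emcn) there, too few to decide what these nuclei are. Nuclei with Coch and Slc4a11 (54 and 46) and with Col1a1 and Runx2 (17 and 11) were kept apart in the same way.

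**Figure D1:**
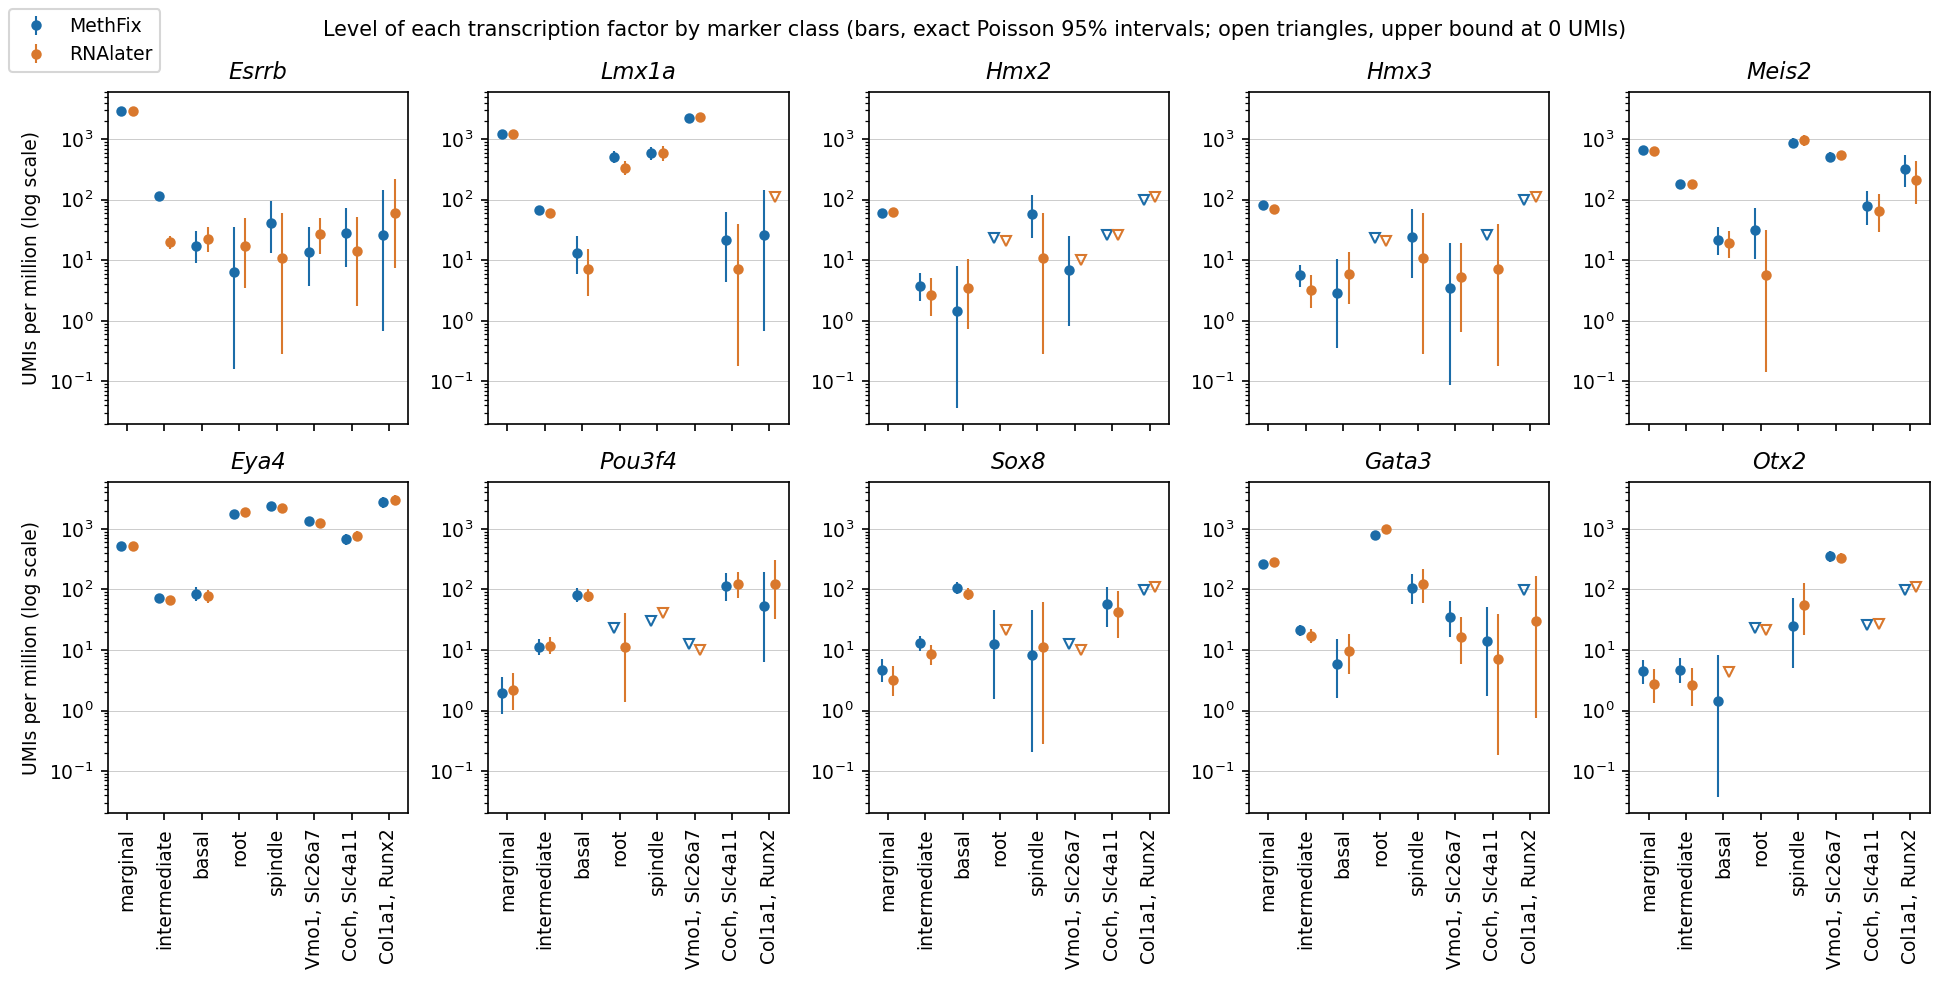
Level of the 10 genes in 8 marker classes, as CPM on a log axis, in MethFix (blue) and RNAlater (orange), with exact Poisson 95% intervals as bars and open triangles for the upper bound where no UMI was counted. Esrrb stood at 2898 and 2911 in marginal nuclei, and Otx2 was high in Vmo1 and Slc26a7 nuclei. Eya4 was high in root and spindle nuclei and in the few Col1a1 and Runx2 nuclei.

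Marginal nuclei had the most members called. Esrrb, Lmx1a, Hmx2, Hmx3 and Gata3 were each at least 4-fold higher in marginal nuclei than in the other 4 classes pooled, in both matrices. This is 5 of 10 members, where 5.16% of the 12730 genes tested (657 genes) passed the same rule. The other classes are pooled by UMIs, so the intermediate class (4266425 and 3392401 UMIs) far outweighs the root class (157768 and 175494). A gene that is higher in root or spindle nuclei can therefore still pass in marginal nuclei. Gata3 did so, with 780 and 997 CPM in root and 266 and 280 in marginal nuclei. A gene was tested where it had at least 20 UMIs over the 5 classes in each matrix, which all 10 members had.

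Esrrb (chromosome 12, 86361117 to 86521628, plus strand, GRCm38) had the highest log2 ratio of the 10 within the 5 classes. Its level in marginal nuclei was 2898 CPM (95% interval, 2849 to 2947; 13586 UMIs) in MethFix and 2911 (2859 to 2964; 11806 UMIs) in RNAlater. In basal nuclei it was 17.5 (9.03 to 30.5) and 22.4 in RNAlater, and in root nuclei 1 and 3 UMIs were counted in all. The log2 ratio of marginal to the other 4 classes in MethFix was 4.91 (4.78 to 5.04), and in RNAlater it was 7.19 (6.89 to 7.50). The gap between those ratios lay in the intermediate class, which read 114 CPM in MethFix and 19.8 in RNAlater. Each matrix had a cluster with both marginal and intermediate markers. In MethFix it held 66 of the intermediate nuclei, in which Esrrb was 1311 CPM (396 of the 488 intermediate UMIs), against 14.2 in the 854 intermediate nuclei of clusters named intermediate. None of the 85 nuclei of that cluster was in the RNAlater matrix. The RNAlater cluster, of 93 nuclei, held 26 intermediate nuclei with Esrrb at 270 CPM (13 of the 67 intermediate UMIs). The part of doublets that passed the doublet filter was not tested.

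Lmx1a, a LIM homeodomain factor (chromosome 1, 167689237 to 167848741, plus strand), was high in marginal nuclei but not there alone. The marginal level was 1193 CPM (1161 to 1224) and 1205 (1171 to 1239), and the log2 ratio over the other 4 classes was 3.79 (3.65 to 3.93) and 4.08 (3.92 to 4.25). Spindle nuclei followed with 587 and 583 and root nuclei with 507 and 336, and the intervals of spindle and root overlapped in MethFix but not in RNAlater, where they were 437 to 762 and 256 to 434. Intermediate nuclei had 68.0 and 59.5 and basal nuclei 13.1 and 7.08. In a cluster led by Rspo2, Lgr5 and Slc26a4, few of whose nuclei were in the root class, Lmx1a was 2125 and 2031 CPM. This is above the level of the marginal class, with intervals that did not overlap. Outside the 5 classes, the Vmo1 and Slc26a7 nuclei were also above the marginal level, as described with those nuclei.

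Hmx2 and Hmx3, a pair of NK-type homeobox genes needed for the vestibular organs, lie side by side on chromosome 7 with 3847 bases between them (Hmx3 at 131542867 to 131544925, Hmx2 at 131548773 to 131558014, plus strand). Their marginal levels were low but clear of the other large classes. Hmx2 had 61.2 CPM (54.3 to 68.7; 287 UMIs) in MethFix and 62.4 (54.9 to 70.6; 253 UMIs) in RNAlater, and Hmx3 had 83.0 (74.9 to 91.6) and 71.5 (63.5 to 80.2). In intermediate nuclei Hmx2 had 3.75 and 2.65 and Hmx3 5.63 and 3.24. The log2 ratios of marginal to the other classes were 3.74 (3.14 to 4.40) and 4.43 (3.63 to 5.36) for Hmx2, and 3.90 (3.36 to 4.50) and 4.24 (3.54 to 5.04) for Hmx3. No UMI of either gene was counted in root nuclei, which allows up to 23.4 CPM in MethFix by the exact interval. Spindle nuclei had 7 UMIs of Hmx2 in MethFix and 1 in RNAlater, a level that these counts leave between 22.9 and 118 CPM in MethFix. Both genes lie within Fgfr2, which is on the opposite strand and had 7634 and 7261 UMIs. The study's methods name default Cell Ranger settings and do not spell out how strand was treated.

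Meis2, a TALE homeobox factor (chromosome 2, 115863064 to 116065839, minus strand), came just under the 4-fold mark in marginal nuclei. Its marginal level was 655 CPM (632 to 678) and 637 (613 to 662), and the log2 ratio was 1.92 (1.82 to 2.03) and 2.00 (1.88 to 2.12), with a mean fold of 3.89. Eya4 was 519 and 529 CPM in marginal nuclei, a log2 ratio of 1.54 and 1.53. Pou3f4, Sox8 and Otx2 had between 1.92 and 4.69 CPM there. Across the 4 marginal clusters of each matrix Esrrb ran from 2438 to 3570 CPM in MethFix and from 2611 to 3502 in RNAlater, Lmx1a from 1048 to 1255 and 1063 to 1380, and Meis2 from 575 to 720 and 552 to 702. For these 3 genes the intervals of the lowest and highest cluster did not overlap in either matrix. Hmx3 ran from 70.8 (60.6 to 82.1) to 125 (97.4 to 158) in MethFix, which did not overlap, and from 65.2 to 101 in RNAlater, which did. Gata3 ran from 206 (166 to 254) to 332 (295 to 372) in RNAlater, which did not overlap, and from 228 to 303 in MethFix, which did.

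Intermediate nuclei had no leading member. None of the 10 reached 4-fold over the other classes there, where 4.44% of the genes tested (565 genes) did. The level of Meis2 there was 182 CPM in both matrices (169 to 195 and 168 to 197), below the marginal and spindle levels and above the basal level of 21.8 and 18.9, with intervals that did not overlap. In clusters named intermediate (854 and 522 nuclei) Meis2 was 180 and 198. In the same nuclei Esrrb was 14.2 and 10.5 CPM and Lmx1a 10.0 and 7.73. The intermediate-class nuclei outside those clusters and outside the cluster with both kinds of markers (224 and 149 nuclei) had Lmx1a at 234 and 350 and Eya4 at 336 and 416. Of the Lmx1a UMIs of the intermediate class, 256 of 290 in MethFix and 180 of 202 in RNAlater were outside clusters named intermediate, as were 274 of 310 and 210 of 227 of the Eya4 UMIs. Whether free RNA or doublets gave those UMIs was not tested.

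Basal nuclei were led by Pou3f4 and Sox8, 2 of the 10 members, against 4.21% of all genes tested (536 genes). Pou3f4 is a POU domain factor known from the mesenchyme around the ear and its fibrocytes, and is a single exon (chromosome X, 110814280 to 110817207, plus strand). Sox8 is a relative of Sox9 and Sox10 (chromosome 17, 25565892 to 25570686, minus strand). Pou3f4 had 81.5 CPM (61.6 to 106; 56 UMIs) in MethFix and 79.1 (61.3 to 100; 67 UMIs) in RNAlater. The intermediate level of Pou3f4 was 11.3 and 11.8 and the marginal level 1.92 and 2.22. Its log2 ratio of basal to the other 4 classes was 3.72 (3.17 to 4.28) and 3.58 (3.03 to 4.13). Sox8 had 106 CPM (83.3 to 134) and 85.0 (66.5 to 107) in basal nuclei, 12.9 and 8.55 in intermediate and 4.69 and 3.21 in marginal nuclei. Its log2 ratio was 3.62 (3.14 to 4.09) and 3.93 (3.37 to 4.51).

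Both basal genes were also present in nuclei with Coch and Slc4a11, genes of spiral ligament fibrocytes. Pou3f4 read 113 and 122 CPM there and Sox8 56.5 and 43.0, with intervals that overlapped the basal ones. Basal nuclei were also split by their own markers. With Cacna1e and Fat2 (111 and 110 nuclei), Pou3f4 was 62.8 (39.4 to 95.1) and 53.8 (34.1 to 80.7) and Sox8 was 120 and 93.5. With Sorcs3 and Col27a1 (65 and 69 nuclei), Pou3f4 was 98.6 (57.4 to 158) and 93.0 (58.3 to 141) and Sox8 was 104 and 63.4. The intervals of Pou3f4 and of Sox8 overlapped between the basal subgroups, so a difference in these was not detectable at this depth. Eya4 was 77.1 (53.1 to 108) with Cacna1e and Fat2 and 12.7 (2.61 to 37.0) with Sorcs3 and Col27a1 in RNAlater, which did not overlap, and 42.8 (24.0 to 70.7) and 34.8 (12.8 to 75.7) in MethFix, which did.

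Root nuclei had Eya4 and Gata3 at least 4-fold above the other classes, 2 of 10 members, against 4.05% of genes tested (515 genes). Eya4 (chromosome 10, 23102963 to 23350786, minus strand) was 1743 CPM (1543 to 1962) and 1898 (1699 to 2113), a log2 ratio of 2.46 (2.27 to 2.64) and 2.59 (2.42 to 2.76). Gata3, a zinc finger factor needed for the ear (chromosome 2, 9857078 to 9890034, minus strand), was 780 (648 to 930; 123 UMIs) and 997 (855 to 1156; 175 UMIs). Its log2 ratio in root nuclei was 2.49 (2.21 to 2.76) and 2.79 (2.55 to 3.02). Marginal nuclei came next for Gata3 with 266 and 280 CPM, and basal nuclei were lowest of the 5 classes with 5.82 and 9.44. The log2 ratio of marginal to the other 4 classes pooled, root among them, was 2.59 and 2.32. Gata3 thus passed the rule in both the root and the marginal class. With DESeq2 size factors in place of total UMIs neither gene passed in root nuclei, and Gata3 did not pass in marginal nuclei thinned to 1000 UMIs each. Meis2 was nearly absent from root nuclei, with 5 UMIs in MethFix and 1 in RNAlater. The antisense gene Gm13256 overlaps Gata3 and had 367 and 328 UMIs beside 1571 and 1437 of Gata3. The root class rests on Ceacam16 and Epyc, and the study also found Epyc RNA in the outer sulcus and greater epithelial ridge. The study saw Lgr5 RNA in root cells, the outer sulcus and Deiters cells. It reports both Lgr5 and Rspo2 as higher in root than in spindle cells. Of the 34 nuclei in each matrix of a cluster led by Rspo2, Lgr5 and Slc26a4, the class held 9 and 7. Gata3 was 161 and 155 CPM in that cluster, below the marginal level, so the Gata3 call does not describe those nuclei.

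Inside the root class, the levels of Lmx1a and Gata3 differed between nuclei with and without Slc26a4. At the deposited depth, 10 of 48 root nuclei in each matrix held UMIs of both genes, 6 and 5 of Lmx1a alone and 22 and 19 of Gata3 alone, so most nuclei with Lmx1a also had Gata3. Thinned to 1000 UMIs, 1 of 43 nuclei in each matrix had both, 8 and 6 had only Lmx1a, and 15 and 18 only Gata3. Root nuclei with a UMI of Slc26a4, the chloride and bicarbonate exchanger pendrin (21 and 23 nuclei), had Lmx1a at 1072 (841 to 1348) and 681 (511 to 888) CPM. Those without Slc26a4 (27 and 25 nuclei) had 78.0 (31.4 to 161) and 52.0 (16.9 to 121). Gata3 went the other way, with 235 (134 to 382) and 378 (255 to 540) with Slc26a4, and 1193 (978 to 1442) and 1508 (1272 to 1774) without. Eya4 was similar in both, at 1910 and 1979 with Slc26a4 and 1617 and 1830 without, with overlapping intervals.

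Clustering of all nuclei, with the 10 members left out of the genes used, gave 3 clusters with root markers in each matrix. In the cluster with the highest Slc26a4 (34 and 34 nuclei, led by Rspo2, Lgr5, Slc26a4 and Map1b), Lmx1a was 2125 (1870 to 2405) and 2031 (1804 to 2279) CPM and Gata3 161 and 155. In the cluster led by Prss36 and Srgap1, with Epyc and Ceacam16 (38 and 35 nuclei), Lmx1a was 155 and 192 and Gata3 1368 (1151 to 1613) and 1432 (1217 to 1675). In the smallest cluster (14 and 13 nuclei, no Slc26a4 UMI), Lmx1a was 74.4 and 71.2 and Gata3 651 and 818. Counted nucleus by nucleus, 32 and 31 of the 34 nuclei with the highest Slc26a4 had more Lmx1a than Gata3 UMIs. In the other clusters, Gata3 had more in 24 of 38 and 18 of 35 nuclei and in 12 of 14 and 11 of 13. Of the 34 nuclei with the highest Slc26a4, 9 and 7 were in the root class and 17 and 16 in no class, so the root class holds few of them. These clusters were found in the same nuclei, so the contrasts between them are descriptions.

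**Figure D2:**
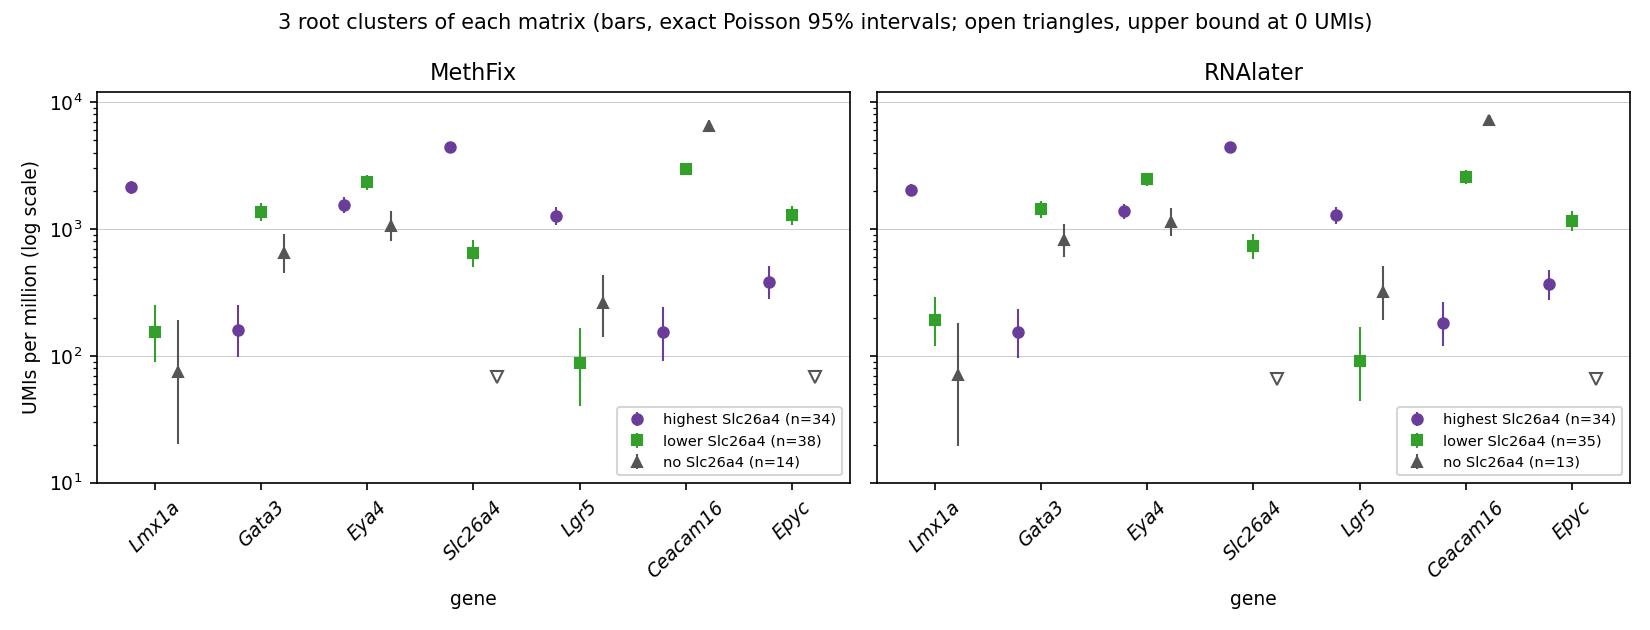
Levels of Lmx1a, Gata3 and Eya4 and of 4 marker genes in the 3 root clusters of each matrix, as CPM on a log axis, with exact Poisson 95% intervals as bars and open triangles for the upper bound at 0 UMIs. Lmx1a was highest in the cluster with the most Slc26a4 (2125 and 2031), and Gata3 in the cluster with less of it (1368 and 1432).

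Spindle nuclei, few in number, were called by the rule for Eya4 and Otx2, 2 of 10 members against 3.11% of genes tested (396 genes). The class rests on Anxa1 alone. The study also saw Anxa1 RNA in surface epithelial cells of the spiral prominence, for which it found no separate cluster. Eya4 was 2405 CPM (2138 to 2695) and 2199 (1905 to 2526), with a log2 ratio of 2.94 (2.76 to 3.11) and 2.75 (2.53 to 2.96). Its interval lay above that of root nuclei in MethFix and overlapped it in RNAlater. The Otx2 call rested on 3 UMIs in MethFix and 5 in RNAlater, with a log2 ratio of 2.51 (0.18 to 4.16) and 4.54 (2.77 to 6.00). Under a rule that asks for more than 3 UMIs, Otx2 was not called. Meis2 was at its highest among the 5 classes in spindle nuclei, with 872 (715 to 1054) and 957 (766 to 1180) CPM, and the next class, marginal, lay below both intervals. Its log2 ratio of spindle to the other classes was 1.14 (0.85 to 1.42) and 1.33 (1.01 to 1.64), under the 4-fold mark. Among nuclei in clusters named spindle (97 and 57), the levels were close to those of the class: Eya4 2242 and 2186, Meis2 812 and 819, Lmx1a 557 and 640, and Otx2 41.9 and 51.2 with 11 and 10 UMIs.

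Otx2, a bicoid-type homeodomain factor (chromosome 14, 48657677 to 48673819, minus strand), had most of its UMIs in nuclei with Vmo1 and Slc26a7. These held 102 of the 173 Otx2 UMIs of all kept MethFix nuclei and 122 of 183 in RNAlater. The level was 352 CPM (287 to 427) and 328 (273 to 392), and no UMI was found in root nuclei. Against the 5 classes pooled, a comparison added after the data were seen, the log2 ratio was 6.28 (5.76 to 6.82) and 6.81 (6.18 to 7.50). Of the 10 members, 1 passed the 4-fold rule in these nuclei, against 3.11% of the 12849 genes tested there (399 genes). Lmx1a and Eya4 came just under it, Lmx1a with a log2 ratio of 1.87 and 1.96 and Eya4 with 1.98 and 1.85. The Lmx1a level of 2221 (2052 to 2399) and 2363 (2209 to 2525) CPM was above the marginal one, and the intervals did not overlap. Eya4 had 1341 and 1254 CPM and Meis2 514 and 552, while Esrrb had 13.8 and 26.9. In Col1a1 and Runx2 nuclei, 17 and 11 in all, Eya4 reached 2750 and 3017 CPM.

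Shares of nuclei with a UMI depend on depth, so each nucleus was thinned to 1000 UMIs. At that depth Esrrb was seen in 80.4% (77.8 to 82.7) of marginal nuclei in MethFix and 77.0% (73.7 to 80.1) in RNAlater, against 2.69% and 0.897% of basal nuclei, which served as background. Before thinning the marginal shares were 92.9% and 93.5%. Lmx1a was seen in 59.0% and 57.7% of marginal nuclei and 82.0% and 86.5% of Vmo1 and Slc26a7 nuclei, against 1.79% and 0.897% of basal nuclei. Meis2 was in 61.0% and 65.2% of spindle and 14.1% and 16.1% of intermediate nuclei, and in 0 and 1 of 43 root nuclei after thinning (0 allows up to 8.22% of nuclei with a UMI at that depth) against 2 and 1 of 48 before it. Eya4 was in 78.0% and 82.6% of spindle and 76.7% of root nuclei in each matrix, against 5.69% and 5.03% of intermediate nuclei. The less abundant genes were seen in few nuclei even where they led. Hmx2 was in 5.24% and 6.96% and Hmx3 in 8.01% and 7.24% of marginal nuclei, and Sox8 in 9.87% and 7.62% and Pou3f4 in 4.48% and 8.97% of basal nuclei. All of these exceeded the shares in classes at background, such as 0.0953% and 0.426% of marginal nuclei for Pou3f4.

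**Figure D3:**
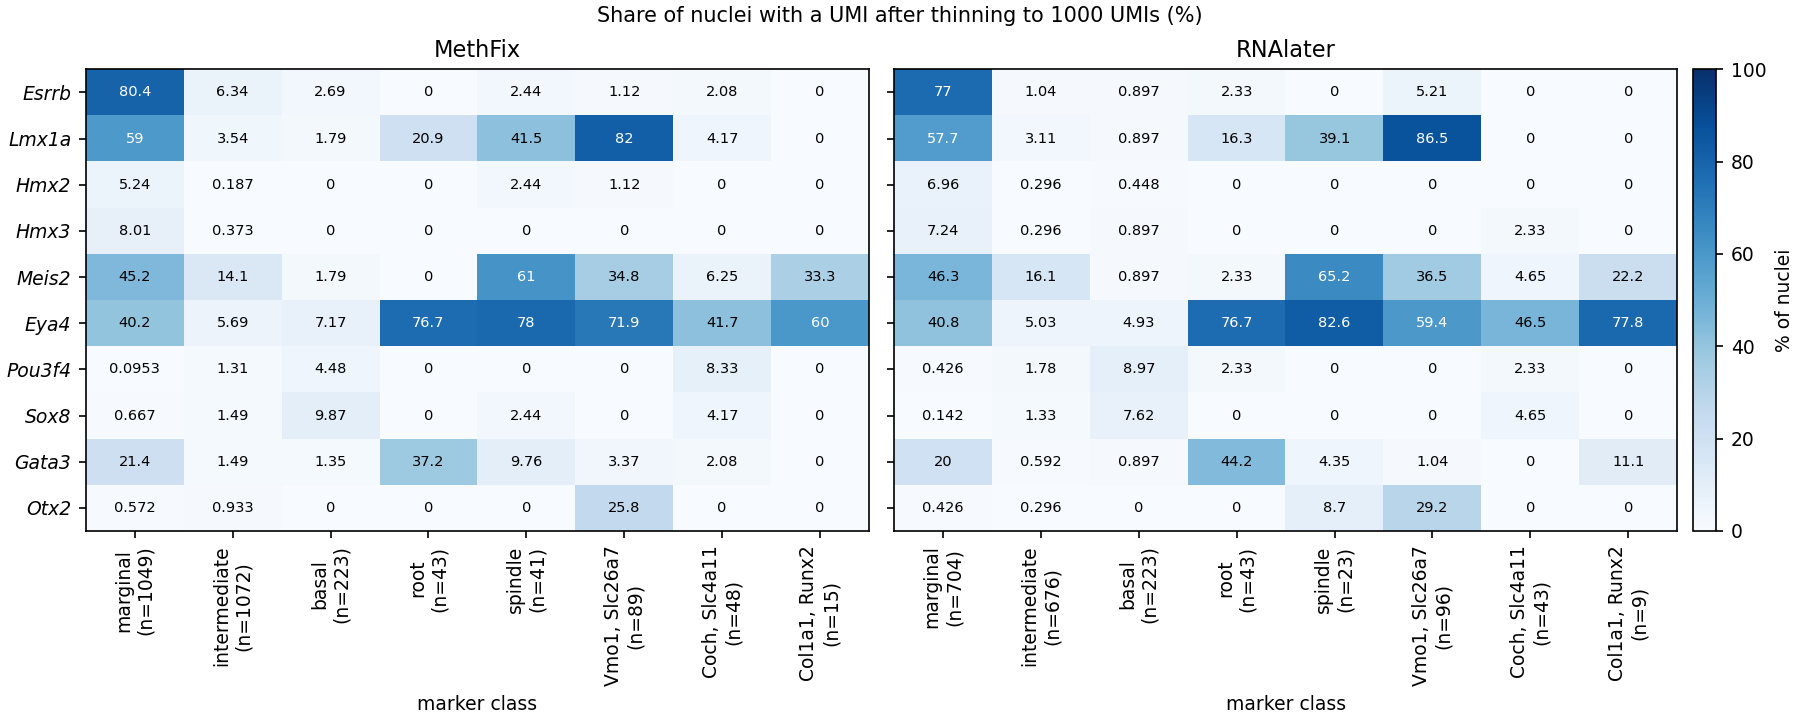
Share of nuclei (%) with at least 1 UMI of each gene after thinning to 1000 UMIs per nucleus, by marker class, with the number of nuclei under each class, in MethFix (left) and RNAlater (right). Darker cells are higher shares: Esrrb was seen in 80.4% and 77.0% of marginal nuclei, and Hmx2, Hmx3, Pou3f4 and Sox8 stayed under 10% in every class shown.

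Several members were found in the same nuclei. After thinning, Esrrb and Lmx1a were both seen in 49.6% of marginal nuclei in MethFix and 44.6% in RNAlater, and 1 or both in 89.8% and 90.1%. Esrrb and Meis2 were both seen in 36.9% and 37.8%, and Esrrb and Gata3 in 17.8% and 16.2%. Hmx2 and Hmx3 were seen together in 6 and 5 nuclei only, at a depth where each was seen in under 10%. In spindle nuclei Meis2 and Eya4 were both seen in 46.3% and 52.2%, and in Vmo1 and Slc26a7 nuclei Lmx1a and Otx2 in 19.1% and 26.0%. Joint detection at this depth follows the levels of the genes and was not compared with any expectation.

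Across the clusters of at least 20 nuclei (19 in MethFix and 18 in RNAlater), correlations of log2(CPM + 10) describe which members had like patterns. The clusters share libraries and most barcodes between matrices. Esrrb went with Hmx3 (Pearson's r of 0.94 and 0.97) and Hmx2 (0.86 and 0.93), and Hmx2 with Hmx3 (0.83 and 0.91). Pou3f4 and Sox8 had 0.83 and 0.78. Lmx1a went with Gata3 (0.79 and 0.77) and Eya4 (0.73 and 0.66), although Lmx1a and Gata3 went opposite ways between root nuclei with and without Slc26a4. The lowest correlation of Meis2 with another member in RNAlater was with Pou3f4, −0.45 and −0.62. These are correlations of levels over clusters, several of which belong to the same cell type.

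**Figure D4:**
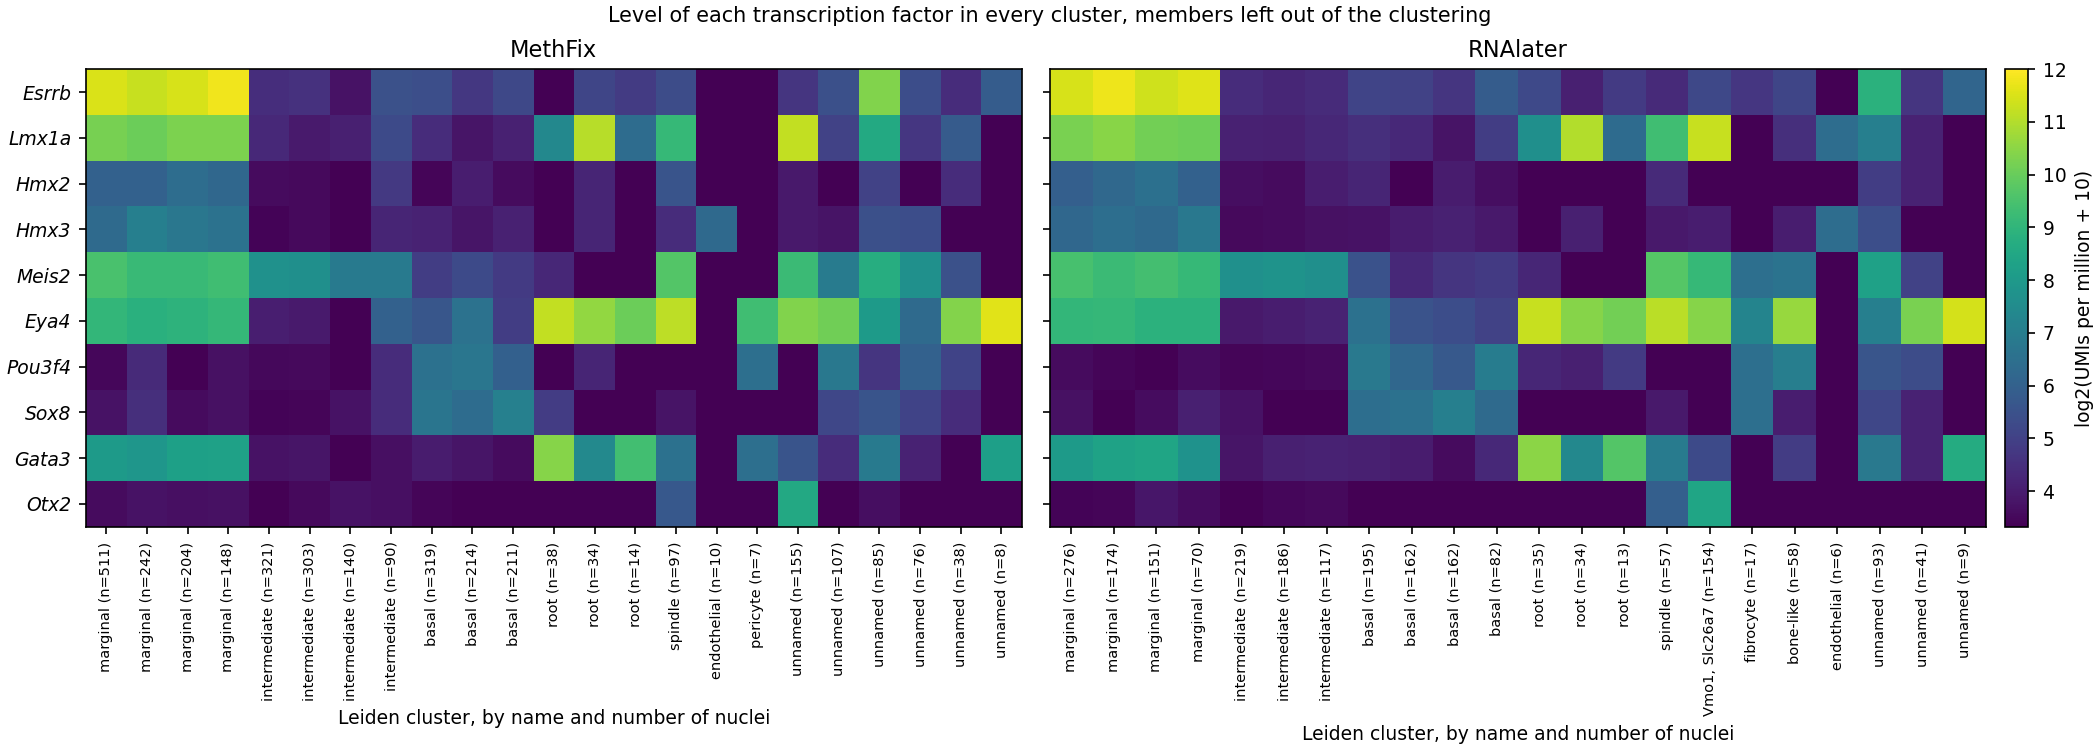
Level of each gene in every cluster, as log2(CPM + 10), with clusters named from marker lists and the number of nuclei given, in MethFix (left) and RNAlater (right); the 10 genes were left out of the clustering. Esrrb, Lmx1a, Hmx2, Hmx3, Meis2 and Gata3 were high in all 4 marginal clusters of each matrix, Pou3f4 and Sox8 in basal clusters, and the root clusters differed in Lmx1a and Gata3.

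By the same measure over 11470 genes, the gene most like Esrrb was Gm29012 (mean r of 0.982), followed by Cdkl1 (0.979) and Rasgef1c (0.971). Lmx1a was most like Atp8b1 (0.964), Gas2 and Myo5c, and Hmx3 most like Mpp3 (0.971), Gm30382 and Tesc. Hmx2 was most like Klf10 (0.939), Gm13111 and Gm13269, and Meis2, with the lowest top value, most like Dock3 (0.913), Shb and Sptlc2. Eya4 was closest to 2610307P16Rik (0.965), Tox and Epb41, Pou3f4 to Gnai1, Zbtb7c and Sp100, and Sox8 to Lims2 (0.955), Lctl and Cpa6. For Gata3 the closest was its overlapping antisense gene Gm13256 (0.944), then Ildr1 and Gata2, and for Otx2 Cndp1 (0.973), Dkk2 and its opposite-strand gene Otx2os1. Overlapping genes can share reads if strand was not used.

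Of a list of 40 other transcription factors of the inner ear, 32 had enough UMIs to be tested and 24 passed the 4-fold rule in at least 1 of the 5 classes, as did 9 of the 10 members. Over all genes tested 19.0% (2420 of 12730) did so, and the shares in single classes are those given with the members. In marginal nuclei 10 did: Meis1, Six4, Gata2, Otx1, Tbx1, Tbx3, Pax2, Tfcp2l1, Grhl2 and Prdm16. Prdm16 had the highest log2 ratio, 4.51 (4.29 to 4.75) and 5.37 (5.05 to 5.72). It was followed by Tbx3 with 3.45 and 4.34 and Otx1, a relative of Otx2, with 3.59 and 4.04. Among those 10, Meis1 was higher in spindle nuclei (1329 and 1374 CPM) than in marginal nuclei (716 and 729). Grhl2 was higher in root nuclei (285 and 262) than in marginal nuclei (172 and 181). The intermediate class, which had 0 of the 10 members, had 5 of this list: Pax3, Tfap2a and Tbx2, factors known from pigment cells, and Zeb1 and Zeb2. Zeb2 was nevertheless higher in basal nuclei (620 and 627 CPM) than in intermediate nuclei (465 and 513). Zeb1 was similar in basal (345 and 322) and intermediate nuclei (344 and 361). Pax3 was 802 and 882 CPM in intermediate nuclei and 3.18 and 2.32 in the others, a log2 ratio of 7.98 and 8.57. Mitf, the main factor of melanocytes, was highest in intermediate nuclei with 1290 and 1435 CPM against 431 and 414 in the others, a log2 ratio of 1.58 and 1.79, but did not reach 4-fold.

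Basal nuclei had 6 of the list (Eya1, Eya2, Tbx18, Foxc1, Irx3 and Irx5), led by Tbx18, a T-box factor of otic mesenchyme, with a log2 ratio of 4.19 and 3.98, Foxc1 with 3.80 and 4.15 and Eya2 with 3.74 and 4.04. Within the 5 classes the calls of the EYA family were thus split. Eya1 and Eya2 passed in basal nuclei and Eya4 in root and spindle nuclei, while Eya3 passed in no class. Eya1 was 1041 and 1002 CPM in basal nuclei. In root nuclei it was 742 and 758, a log2 ratio of 1.60 and 1.46, under the 4-fold mark. Outside the 5 classes, Eya4 was also high in Col1a1 and Runx2 nuclei, as given above. In root nuclei Sall2 had a log2 ratio of 4.47 and 4.78 and Irx5 of 4.01 and 3.88. Irx5, which passed in both classes, was higher in root nuclei (171 and 182 CPM) than in basal nuclei (58.2 and 66.1). Spindle nuclei had Bach2, with 424 and 462 CPM and a log2 ratio of 3.94 and 4.02. Vmo1 and Slc26a7 nuclei had Meis1 (3.77 and 3.85) and Grhl2 (2.01 and 2.23), while Meis2 did not pass there. Others tested and not called included Pbx3, Sox5, Sox6, Sox9 and Sox10. Lmx1b, Six2, Pax8, Dlx5, Dlx6, Foxc2, Pou3f3 and Hmx1 had too few UMIs to be tested.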

How the data were processed

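The authors deposited UMI counts per gene and barcode (Cell Ranger 3.0.1 and build GRCm38, from the submitters' processing notes), 1 matrix per preservation method. The methods name default settings and the downloadable mm10 reference; how introns and strand were treated is not spelled out there. The 4748 MethFix and 3868 RNAlater barcodes deposited held 21027671 and 17681824 UMIs.

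Nuclei with at least 200 genes, at most 8000 UMIs and at most 10% mitochondrial UMIs were kept, and Scrublet (scanpy 1.11.5, expected rate 0.1) removed 224 and 18 doublets. A nucleus joined the class with at least 2 marker UMIs and at least 2 times as many as any other of 10 classes. UMIs were summed per class, and a gene was called at 4-fold over the other 4 classes pooled in both matrices, with a floor of 3 counts at 0. The members, lists and tests were chosen with earlier results of these data known. That a called class must hold a UMI, and the 4-fold comparison for Vmo1 and Slc26a7 nuclei, were set after values were seen.

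Intervals are exact Poisson (levels), Clopper-Pearson (shares) and conditional binomial (ratios). UMIs were thinned at random to 1000 per nucleus. Clusters are from the Leiden algorithm (leidenalg 0.10.2) on 4000 variable genes without the members, 30 components, 10 neighbours and resolution 1 or 1.5. The call was checked on simulated counts in the marginal class only, for genes with many UMIs raised well above 4-fold. That check does not cover calls in the other classes or of low-count genes such as Pou3f4, Sox8 and Otx2. Genes named are the members, the called factors of a list of 40 with values for the top 3 per class, and the 3 genes most alike in pattern; some factors of the list are not reported here. Positions come from GENCODE. Class sums were also scaled with edgeR 4.0.16 and DESeq2 1.42.0 (R 4.3.3), with 15 planned and 6 added alternatives.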

Additional observations from a re-analysis of the deposited data

How the results depend on the processing

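Over the planned and added alternatives, 107 of 120 counts of members called stayed within 1.5 times the count reported, and none of 346 log2 ratios reversed, with 88 beyond their counting interval. With DESeq2 size factors and at 8-fold, root had 0 members called. Spindle had 0 at 8-fold and 1 when nuclei were thinned, with DESeq2 size factors, with Leiden clusters, with more than 3 UMIs asked of the class, with intermediate nuclei only from intermediate clusters, and when Vmo1 and Slc26a7 nuclei or all other classes were pooled with the others. Basal had 1 (Sox8) in MethFix nuclei not in RNAlater. Without any marker UMI of other classes, basal had 0 (27 and 23 nuclei), Vmo1 and Slc26a7 nuclei had 2 (10 and 8 nuclei) and spindle could not be fitted. Those 2 members were Lmx1a and Eya4, and Otx2 was not called there. Basal still led for Pou3f4 and Sox8 under that setting. The basal log2 ratio of Sox8 was at least 2.87 in MethFix and 3.25 in RNAlater over all alternatives, above the 4-fold mark. With Leiden clusters Otx2 was not called in spindle, although its RNAlater log2 ratio was 5.73. A gene with too few UMIs to be tested cannot be called, whatever its ratio. Which calls were lost in this way was not tested. Letting a class with no UMI be called raised root to 3, with 8.11% of genes called. In marginal nuclei, 4 were called without Gata3 under 3 settings, and Meis2 was added with DESeq2 or Leiden clusters. The leading class of Meis2 became marginal with DESeq2. Without marker UMIs of other classes Eya4 joined the marginal calls. Spindle then held 2 MethFix and 0 RNAlater nuclei, so it could not lead for any gene in RNAlater. Under that setting marginal led for Meis2 and Otx2, root for Eya4 and, in MethFix on those 2 nuclei, spindle for Lmx1a. In MethFix nuclei not in RNAlater, spindle led for Hmx2 and intermediate for Otx2, the spindle calls were Hmx2 and Eya4, and Lmx1a replaced Otx2 in the 5 Vmo1 and Slc26a7 nuclei. The Esrrb ratio in MethFix ran from 2.71 with all deposited barcodes to 7.73 with no other marker UMIs. The causes were not tested. No paired analysis was possible because each method has 1 library and no test was run. Root and spindle hold under 50 nuclei each, which limits low genes such as Hmx2 and Otx2.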

Other observations

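Nuclei that joined no marker class, 625 in MethFix and 422 in RNAlater, also held members of several cell types. Eya4 stood at 450 CPM (95% interval, 418 to 484) and 451 (417 to 488) and Lmx1a at 310 and 318. Pou3f4 was 59.5 and 56.8 and Sox8 60.8 and 74.8, with intervals that overlapped the basal ones in the RNAlater matrix and, for Pou3f4, in both. Cldn11, the marker of the basal class, was the only gene in its rule, and clusters named basal held 744 and 601 nuclei against 232 and 228 in the class. Across those clusters Pou3f4 ran from 54.0 to 96.9 CPM in MethFix and from 43.2 to 115 in RNAlater, and Sox8 from 74.2 to 126 and from 70.1 to 126.

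A small cluster that could not be named, of 8 nuclei in MethFix and 9 in RNAlater, had Eya4 at 3113 CPM (2403 to 3968) and 2747 (2212 to 3373) and Gata3 at 287 (105 to 625) and 392 (209 to 671), with 0 UMIs of Lmx1a, Meis2, Pou3f4, Sox8 and Otx2. A MethFix cluster of 107 nuclei that could not be named had Eya4 at 1107 (984 to 1241) together with Pou3f4 at 102 (67.0 to 148). Eya4 and Pou3f4 were also found together in the Coch and Slc4a11 class, at 671 and 113 CPM in MethFix and 775 and 122 in RNAlater.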
